A study of Mus musculus with 18 samples.

Results

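The 7 genes described here encode the MHC class II pathway, and they were taken by symbol from the 55450 genes of the count table. H2-Aa and H2-Ab1 encode the α and β chains of the class II molecule I-A, and H2-Eb1 encodes the β chain of I-E. H2-DMa and H2-DMb1 encode the chains of H2-DM, which exchanges the peptide held by class II molecules. Cd74 encodes the invariant chain, and Ciita encodes the transactivator of class II genes. All 7 genes passed the filter on low counts that kept 16270 genes for testing. They were listed by name and not by a measured value.

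Expression was measured by RNA sequencing of left ventricle from FVB/N mice, which were cardiac-specific Gαq-overexpressing animals or their wild-type (WT) littermates. Gαq is the α subunit of a G protein that couples receptors to phospholipase C. From 4 weeks of age and for 16 weeks, the mice ate a control diet (CD) or chow with ertugliflozin (ERTU) at 0.5 mg/g, a blocker of the renal glucose carrier SGLT2. There were 9 WT libraries, 4 on CD and 5 on ERTU, and 9 Gαq libraries, 5 on CD and 4 on ERTU. The labels call the overexpression cardiac-specific, so that immune cells, which carry most class II molecules, are not its labelled site.

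MHC class II molecules present peptides from the endosomal pathway to CD4+ T cells. Dendritic cells, B cells and macrophages carry them constitutively or after activation, and interferon-γ can induce them in other cells, endothelium among them. CIITA binds no DNA itself. It joins the factors RFX, NF-Y and CREB on a conserved promoter stretch, the X and Y boxes, that class II genes, H2-DM genes and Cd74 share. In whole ventricle, fewer class II-bearing cells and less class II RNA per cell cannot be told apart.

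The promoter windows of H2-Aa, H2-Eb1 and H2-DMb1 are shown because they hold letters like those of the X and Y boxes on which CIITA acts. Each runs from 250 bases before the start site to 50 bases after it (RefSeq, build GRCm38.p6). H2-Aa lies on the minus strand at chr17:34287774-34288073, H2-Eb1 on the plus strand at chr17:34305617-34305916 and H2-DMb1 on the plus strand at chr17:34152941-34153240. Capitals mark matches, on either strand, to ATTGG, to TGACGTCA and to CTAGNAACTGATGATGCT, the longest stretch that the H2-Eb1 and H2-DMb1 windows share with at most 1 differing base (N). The letters were chosen after these windows had been read.
H2-Aa: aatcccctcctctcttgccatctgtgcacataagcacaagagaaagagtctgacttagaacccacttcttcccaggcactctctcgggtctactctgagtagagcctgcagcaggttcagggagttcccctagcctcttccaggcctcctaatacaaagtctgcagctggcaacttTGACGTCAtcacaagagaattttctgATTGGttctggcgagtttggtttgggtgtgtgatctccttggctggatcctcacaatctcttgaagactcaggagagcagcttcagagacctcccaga
H2-Eb1: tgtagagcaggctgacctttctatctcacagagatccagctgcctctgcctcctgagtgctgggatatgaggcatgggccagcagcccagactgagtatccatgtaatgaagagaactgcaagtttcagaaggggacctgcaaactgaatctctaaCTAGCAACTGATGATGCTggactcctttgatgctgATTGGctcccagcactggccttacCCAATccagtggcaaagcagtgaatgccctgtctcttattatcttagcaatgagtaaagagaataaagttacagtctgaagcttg
H2-DMb1: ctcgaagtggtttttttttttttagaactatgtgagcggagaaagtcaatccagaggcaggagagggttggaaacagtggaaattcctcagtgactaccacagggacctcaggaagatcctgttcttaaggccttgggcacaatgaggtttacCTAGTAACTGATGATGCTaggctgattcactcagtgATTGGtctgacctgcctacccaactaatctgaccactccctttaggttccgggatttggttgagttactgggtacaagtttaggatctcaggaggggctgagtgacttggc

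In H2-Eb1 and H2-DMb1 the shared stretch CTAGNAACTGATGATGCT, which covers part of the X box and the element after it, began 94 and 97 bases before the start site. ATTGG, the core of the Y box, followed after 17 bases in H2-Eb1 and after 18 bases in H2-DMb1. H2-Aa held TGACGTCA, the cAMP response element, 74 bases before its start site, and ATTGG followed after 18 bases. Only ATTGG is common, with a match in 37.4% of 32851 promoter windows of the same length. TGACGTCA occurred in 1.79% of them, and CTAGNAACTGATGATGCT in 2 windows (0.00609%), those of H2-Eb1 and H2-DMb1, from which its letters had been read. A second ATTGG stood on the opposite strand of H2-Eb1, 35 bases before its start site. H2-DMa had 2 windows, of which 1 held ATTGG, 198 bases before that start site. The letters searched do not overlap one another in these windows, and a match is no measure of binding.

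The members lie at 3 places in the genome (GRCm38). The 5 H2 genes sit in the MHC on chromosome 17, with H2-DMa at 34119541 to 34139101, H2-DMb1 at 34153072 to 34160230, H2-Ab1 at 34257689 to 34269419, H2-Aa at 34282744 to 34287823 and H2-Eb1 at 34305867 to 34316674. Cd74 is on chromosome 18 (60803848 to 60812652) and Ciita on chromosome 16 (10480059 to 10528418). H2-Aa is the one member on the minus strand. FVB/N mice carry the q haplotype of the MHC, whereas the reads were aligned to the C57BL/6 genome, of the b haplotype, and class II genes are among the most polymorphic in the genome. Counts of a polymorphic gene can therefore lose read pairs, to an extent that was not tested and that all 18 libraries of this 1 strain share. H2-DMb1 has a near-identical neighbour, H2-DMb2, and only uniquely aligned pairs were counted. H2-Eb1 overlaps the antisense gene Gm20513 and Ciita overlaps Dexi, both on the opposite strand. H2-DMa overlaps Brd2 and 3 further genes, of which only CR974462.3 lies on its own strand. Cd74 overlaps Mir5107 on the same strand. The study's methods name same-strand counting, under which the counts of H2-DMa and Cd74 can lack pairs from stretches shared with a gene of the same strand.

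Total counts ran from 15383566 to 20908363 read pairs per library, and log2 CPM correlated within groups at 0.971 to 0.988. No 2 libraries agreed within sampling noise. The labelled tissue held its defining markers, since 7 cardiomyocyte genes summed to between 63305 and 94904 CPM in every library. Atrial markers ranged from 2.14 to 701 CPM in sum. The labels give no sequencing batch and no cage or litter. The p-values of group comparisons set a difference against the spread between these libraries. The libraries are named by group and by the number in the count table, which runs across all groups.

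Cd74 stood highest of the members when levels were compared per length of exon (RPKM, in which counts are scaled to exon length and to library size). Cd74 averaged 55.4 ± 16.1 RPKM (SD, n = 18), H2-Aa 18.6 ± 5.89 RPKM and H2-Ab1 12.4 ± 3.77 RPKM. The H2-DM chains and I-E were far lower, with H2-DMa at 1.26 ± 0.337 RPKM, H2-Eb1 at 1.15 ± 0.454 RPKM and H2-DMb1 at 1.05 ± 0.354 RPKM. Ciita was lowest, at 0.283 ± 0.0967 RPKM. The order from Cd74 to H2-Aa, H2-Ab1 and then the lower genes held in 18 of 18 libraries, and H2-DMb1 exceeded Ciita in all 18. The 3 in between were not ordered: H2-DMa exceeded H2-Eb1 in 12 of 18 libraries, and H2-Eb1 exceeded H2-DMb1 in 9 of 18. Exon length here sums all annotated isoforms, which lowers the RPKM of genes with long alternative exons such as Ciita (9535 bases).

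The depth behind these levels differed between members. Cd74 had 787 to 2811 read pairs per library, H2-Aa 475 to 2243 and H2-Ab1 226 to 1001. H2-DMa had 37 to 131, Ciita 18 to 88, H2-Eb1 16 to 62 and H2-DMb1 8 to 62. Low counts add counting noise to the 4 low genes, which the standard errors below include along with the spread between libraries. The precision did not follow depth alone. By diet H2-DMa, a low gene, had a standard error of 0.149, against 0.160 for Cd74 and 0.185 for H2-Aa.

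H2-Aa, the I-A α chain, read 47.3, 104, 87.7 and 65.0 CPM (counts scaled to TMM-adjusted library totals) in WT CD libraries 1, 2, 4 and 5. In Gαq CD libraries 6 to 10 it read 68.7, 99.8, 78.8, 81.9 and 106 CPM. On ERTU it read 28.3, 61.3, 73.9, 53.3 and 73.6 CPM in WT libraries 11 to 15, and 56.8, 95.8, 51.6 and 41.0 CPM in Gαq libraries 16, 17, 18 and 20. The groups overlapped, and WT ERTU library 11 was the lowest of all 18 libraries. H2-Ab1, the β chain of the same dimer, averaged 34.6 ± 9.17 CPM in WT CD (SD, n = 4), 39.7 ± 6.30 in Gαq CD (n = 5), 26.1 ± 8.73 in WT ERTU (n = 5) and 26.3 ± 9.16 in Gαq ERTU (n = 4). H2-Ab1 counts were 43.4% to 46.3% of H2-Aa counts in the group means, so that both chains of I-A moved in step.

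Cd74, the invariant chain, read 61.7, 117, 120.2 and 98.4 CPM in WT CD and 97.9, 132, 89.9, 125 and 133 CPM in Gαq CD. On ERTU the values were 46.9, 83.5, 92.9, 63.3 and 97.2 CPM in WT and 76.9, 116, 64.2 and 57.6 CPM in Gαq. Gαq ERTU library 17 was the high value of its group, inside the range of Gαq CD, and the other 3 Gαq ERTU libraries lay below all 5 Gαq CD libraries.

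H2-Eb1, the I-E β chain, read 1.09, 3.52, 3.35 and 2.56 CPM in WT CD and 2.71, 2.93, 1.73, 2.94 and 2.41 CPM in Gαq CD. On ERTU it read 0.953, 2.95, 3.11, 1.82 and 2.87 CPM in WT and 1.39, 1.77, 1.13 and 0.883 CPM in Gαq. The highest Gαq ERTU library, 1.77 CPM, only just passed the lowest Gαq CD library, 1.73 CPM. The q haplotype, like b, makes no complete I-E molecule because its α chain gene is defective, and only a gene labelled as a pseudogene, H2-Ea-ps, was tested for that chain, at group means of 1.04 to 1.53 CPM.

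H2-DMb1 read 1.21, 2.33, 2.14 and 1.87 CPM in WT CD, 2.40, 3.03, 2.15, 1.94 and 2.13 CPM in Gαq CD, 0.476, 1.34, 1.53, 1.09 and 1.5 CPM in WT ERTU and 2.00, 1.94, 1.30 and 1.30 CPM in Gαq ERTU. Its partner H2-DMa averaged 4.10 ± 0.922 CPM in WT CD (SD, n = 4), 5.59 ± 0.820 in Gαq CD (n = 5), 3.52 ± 1.11 in WT ERTU (n = 5) and 4.02 ± 0.573 in Gαq ERTU (n = 4). Both H2-DM chains thus had their highest group mean in Gαq CD and their lowest in WT ERTU, as did every other member except H2-Eb1. Ciita averaged 2.69 ± 0.984 CPM in WT CD (n = 4), 3.14 ± 0.668 CPM in Gαq CD (n = 5), 2.22 ± 0.975 CPM in WT ERTU (n = 5) and 2.75 ± 1.13 CPM in Gαq ERTU (n = 4), all SD. The gap between the highest and the lowest group mean of Ciita was smaller than the SD in 3 of 4 groups.

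**Figure D1:**
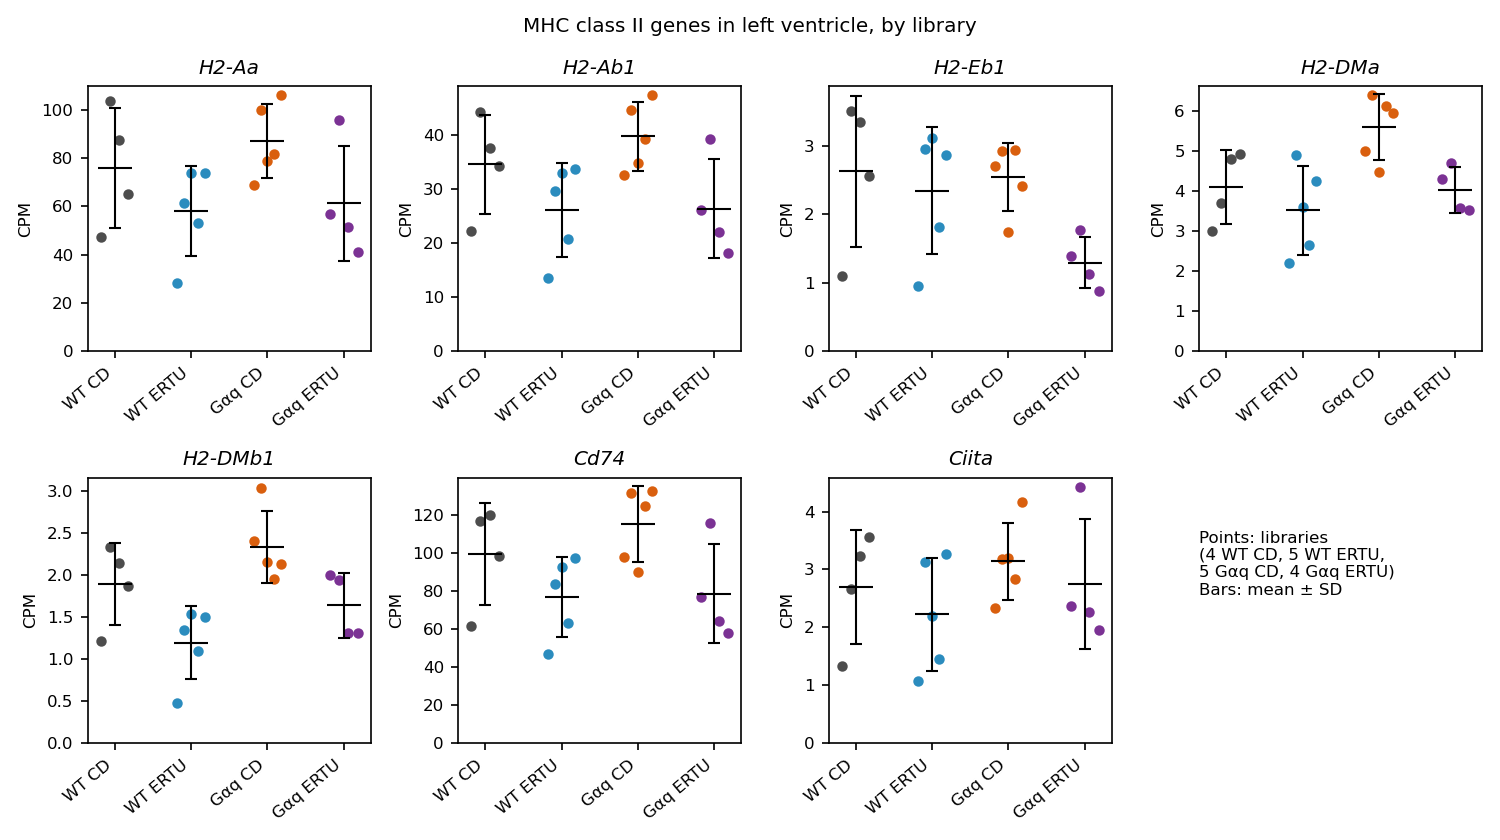
Levels of the 7 members in CPM, counts scaled to TMM-adjusted library totals (vertical axes, each from 0), in the 18 libraries by group. Points are libraries and bars the mean ± SD. Every pair of groups compared overlaps for every member, and the Gαq ERTU points of H2-Eb1 lie between 0.883 and 1.77 CPM.

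The question for diet was whether class II expression differed with ERTU once genotype was accounted for. All 7 members had a lower fitted level on ERTU, by log2 fold changes from -0.59 to -0.24 with a median of -0.47, where the median over all genes was -0.0017. None passed the test of edgeR at an adjusted p under 0.05. Neither did any other gene (0% of 16270), and DESeq2 and limma voom called 0 members as well. At an unadjusted p under 0.05, 6 of 7 members were lower, against 4.31% of all genes. A log2 fold change below 0 was found in 50.5% of all genes. The members varied together from library to library (r of 0.689 to 0.977 between pairs, described below). Counts of members, here and within each genotype, are therefore not counts of 7 separate observations.

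H2-DMb1 had a log2 fold change of -0.59 ± 0.19 (SE) by diet, H2-Eb1 -0.56 ± 0.25, H2-Ab1 -0.50 ± 0.17, Cd74 -0.47 ± 0.16, H2-Aa -0.45 ± 0.18 and H2-DMa -0.35 ± 0.15. Their adjusted p-values (edgeR, Benjamini-Hochberg) were 0.639 to 0.640. Ciita, the transactivator, had the smallest value, -0.24 ± 0.23 with an adjusted p of 0.774. As a ratio, Cd74 on ERTU was 0.724 of its level on CD (95% interval 0.574 to 0.913), and Ciita was 0.846 of it (0.611 to 1.17). The interval of Ciita holds both no change and the value of Cd74.

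In Gαq hearts alone, all 7 members again had a lower fitted level on ERTU, where 51.1% of all genes did. None was called by edgeR (0.00615% of all genes were), 0 had groups that do not overlap (1.61% of all genes had), and 4 of 7 were lower at an unadjusted p under 0.05 (4.09% of all genes were). In the edgeR fit H2-Eb1 had the value farthest from 0, with a log2 fold change of -0.97 ± 0.35 (SE), a ratio of 0.509 (95% interval 0.307 to 0.843) and an adjusted p of 0.653. It was followed by H2-Ab1 at -0.59 ± 0.25, Cd74 at -0.55 ± 0.23, H2-DMb1 at -0.51 ± 0.27, H2-Aa at -0.50 ± 0.27, H2-DMa at -0.47 ± 0.21 and Ciita at -0.20 ± 0.32. With the deposited transformed values H2-Eb1 was at -0.49 and H2-Ab1 at -0.58, so that H2-Eb1 was no longer first. The other low genes were nearer to 0 there too, with H2-DMb1 at -0.26, H2-DMa at -0.32 and Ciita at -0.13. The order of genes of unlike level thus depended on the scale. The size of these values depended on single libraries. Without Gαq ERTU library 17 the log2 fold change of Cd74 was -0.80, of H2-Aa -0.81, of H2-Eb1 -1.17 and of Ciita -0.53. Without Gαq ERTU library 20 that of Cd74 was -0.42, of H2-Aa -0.35, of H2-Eb1 -0.82 and of Ciita -0.0540. No member was called in either case.

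In WT hearts alone, all 7 members also had a lower fitted level on ERTU (48.5% of all genes), with 0 called by edgeR (0% of all genes) and 0 whose groups do not overlap (0.787% of all genes). H2-DMb1 was the one member lower at an unadjusted p under 0.05 (1.44% of all genes were), at -0.67 ± 0.28 on the log2 scale (adjusted p = 1.00). H2-Ab1 was at -0.41 ± 0.25, H2-Aa at -0.39 ± 0.27, Cd74 at -0.38 ± 0.23, Ciita at -0.29 ± 0.33, H2-DMa at -0.22 ± 0.21 and H2-Eb1 at -0.17 ± 0.33. Under limma voom with sample quality weights the number below 0 was 4 of 7, since H2-Eb1, H2-DMa and Ciita turned positive. Without library 11, the lowest of the WT ERTU group, H2-Eb1 was at 0.02. The direction in WT therefore held less widely across settings than that in Gαq.

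The interaction asked whether the ERTU effect differed between genotypes. No member was called (edgeR, 0% of all genes), and 0 of 7 had an unadjusted p under 0.05 (1.92% of all genes had). H2-Eb1 had the largest interaction, -0.80 ± 0.48 (adjusted p = 1.00), with a 95% interval from -1.81 to 0.20. The other 6 lay between -0.25 and 0.16, with 95% intervals that reached from -0.91 to 1.06. All 7 intervals held 0, and they were wide enough that the data do not separate an equal from an unequal effect.

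**Figure D2:**
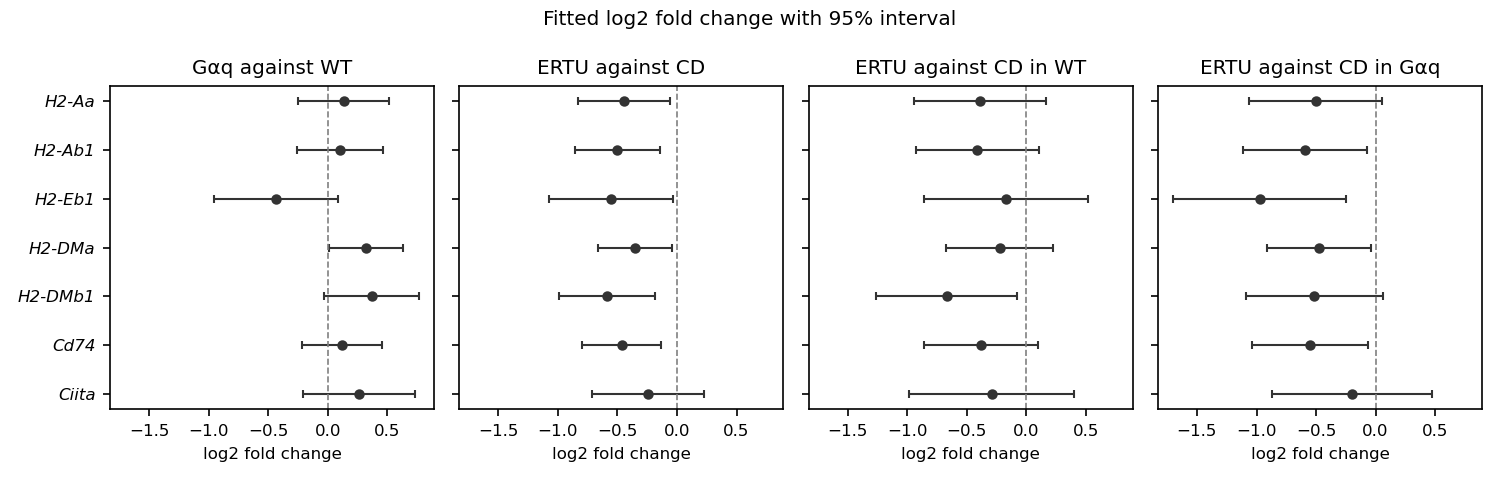
Fitted log2 fold changes of the 7 members (points, edgeR) with 95% intervals (lines) for Gαq against WT, ERTU against CD, and ERTU against CD in WT and in Gαq, where the dashed line is no change. All points of the 3 diet panels lie below 0, and H2-Eb1 is the one member below 0 for Gαq against WT.

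The question for genotype was whether class II expression differed between Gαq and WT hearts over both diets. None of the 7 members was called by edgeR, where 19.6% of all genes were, and DESeq2 called 0 of 7 in each comparison of groups, diets or genotypes. H2-DMb1 had a log2 fold change of 0.37 ± 0.19 (SE) in Gαq against WT, H2-DMa 0.32 ± 0.15, Ciita 0.26 ± 0.23, H2-Aa 0.13 ± 0.18, Cd74 0.12 ± 0.16 and H2-Ab1 0.10 ± 0.17. H2-Eb1 was on the other side, at -0.43 ± 0.25. H2-DMa came nearest to the threshold, with an unadjusted p of 0.0454 in edgeR and an adjusted p of 0.147. The ratio of Gαq to WT for Cd74 was 1.09 (95% interval 0.863 to 1.37) and that for H2-Aa was 1.10 (0.840 to 1.43). Without Gαq ERTU library 17 the log2 fold change of Cd74 was 0.0158, that of H2-Aa 0.00191 and that of Ciita 0.11.

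On CD, Gαq and WT hearts were compared without ERTU in either. No member was called (8.10% of all genes were), and 0 of 7 had groups that do not overlap (9.17% of all genes had). H2-DMa was at 0.44 ± 0.21 (unadjusted p = 0.0504 and adjusted p = 0.239 by edgeR, the smallest of the 7), H2-DMb1 at 0.30 ± 0.27, Ciita at 0.22 ± 0.32, Cd74 at 0.21 ± 0.23, H2-Aa and H2-Ab1 both at 0.19, and H2-Eb1 at -0.06 ± 0.33. H2-Eb1 changed sign on CD under limma voom and with the deposited transformed values. Apart from that of H2-DMa (SD 0.33), each value was smaller than the SD of log2 CPM of its gene around the group means. Without WT CD library 1, the lowest of its group, H2-Aa was at 0.0171, H2-Ab1 at 0.0285 and Cd74 at 0.0346.

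On ERTU, 8.17% of all genes differed between genotypes and no member did by edgeR. H2-Eb1 had a log2 fold change of -0.86 ± 0.35 (adjusted p = 0.148), with Gαq ERTU at 0.883 to 1.77 CPM and WT ERTU at 0.953 to 3.11 CPM. It was called under limma voom with sample quality weights, at -1.13 and an adjusted p of 0.0368, and not by DESeq2 (adjusted p = 0.113). Its value was -0.40 (adjusted p = 0.201) by limma on the deposited transformed values. In edgeR it was -1.06 without WT ERTU library 11 and -0.70 without Gαq ERTU library 20. H2-DMb1 lay on the other side at 0.45 ± 0.29, Ciita at 0.31 ± 0.33, H2-DMa at 0.19 ± 0.21, H2-Aa at 0.08 ± 0.27, Cd74 at 0.03 ± 0.23 and H2-Ab1 at 0.01 ± 0.25. All 7 members had overlapping groups, where 10.9% of all genes had none.

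H2-Eb1 was also set against H2-Ab1 within each library, a ratio that does not depend on scaling and that was chosen after the values had been seen, so that it has no test. H2-Eb1 counts were 7.31% ± 1.71 (SD, n = 4) of H2-Ab1 counts in WT CD, 8.75% ± 1.09 (SD, n = 5) in WT ERTU, 6.50% ± 1.46 (SD, n = 5) in Gαq CD and 4.97% ± 0.361 (SD, n = 4) in Gαq ERTU. The Gαq ERTU libraries lay between 4.51% and 5.35% and the WT ERTU libraries between 7.08% and 9.96%, with no overlap. Between these 2 groups the levels of 10.9% of all genes did not overlap, and the level of H2-Eb1 itself did overlap. That share is of levels. The share of all genes whose ratio to H2-Ab1 does not overlap was not computed. WT CD library 1, at 4.91%, fell inside the Gαq ERTU range. Gαq CD spanned 5.00% to 8.32% and overlapped all other groups. The low counts of H2-Eb1, 16 to 62 per library, limit this ratio.

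**Figure D3:**
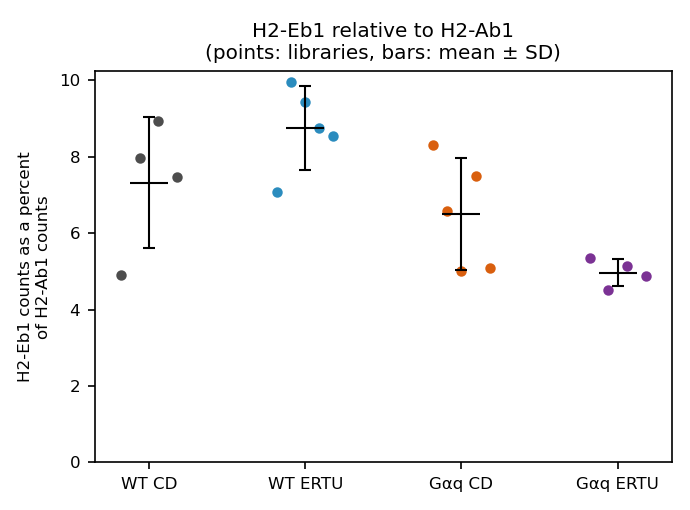
H2-Eb1 counts as a percent of H2-Ab1 counts (vertical axis, from 0) in each of the 18 libraries by group, where points are libraries and bars the mean ± SD. The 4 Gαq ERTU libraries lie between 4.51% and 5.35%, below all 5 WT ERTU libraries, and WT CD library 1 falls inside the Gαq ERTU range. The ratio was chosen after the values had been seen.

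Class II levels varied widely between libraries of 1 group. WT CD library 1, WT ERTU library 11 and Gαq ERTU library 20 were each the lowest of their group for all 7 members. Gαq ERTU library 17 was the highest of its group for 6 of 7 and Gαq CD library 10 for 4 of 7. From the lowest to the highest library the levels spanned 2.84-fold for Cd74, 3.75-fold for H2-Aa and 6.36-fold for H2-DMb1. None of the 28 sets of 1 member in 1 group held a library past the critical value for an outlying sample. The SD of log2 CPM around the group means was 0.33 to 0.55 over the members. Its median was 0.20 over the 13094 genes with a mean log2 CPM of at least 1, which include every member but H2-DMb1. The SD was larger than that of 82.4% of these genes for H2-DMa and of 97.0% for H2-Eb1. Those genes were not matched to the members for level.

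The members deviated together from library to library. Over the 18 libraries, the deviations of log2 CPM from the group mean were correlated in all 21 pairs of members, with Pearson's r from 0.689 (H2-Aa with H2-DMa) to 0.977 (H2-Aa with H2-Ab1) and a median of 0.866. Spearman's rho ran from 0.600 to 0.957. The largest permutation p was 0.0101 for r and 0.0345 for rho, each adjusted over 37 relations, and the smallest unadjusted p was 1e-05, the smallest that the permutations can give. Without the 2 libraries farthest from the median of the first gene, in most pairs WT CD 1 and WT ERTU 11, r ran from 0.465 (H2-DMb1 with Ciita) to 0.959. Cd74, on another chromosome, had an r of 0.970 with H2-Ab1 (0.959 without the 2 farthest) and 0.867 with Ciita (0.766). H2-Aa and H2-Ab1 also share depth and scaling with each other, as all pairs of 1 library do.

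**Figure D4:**
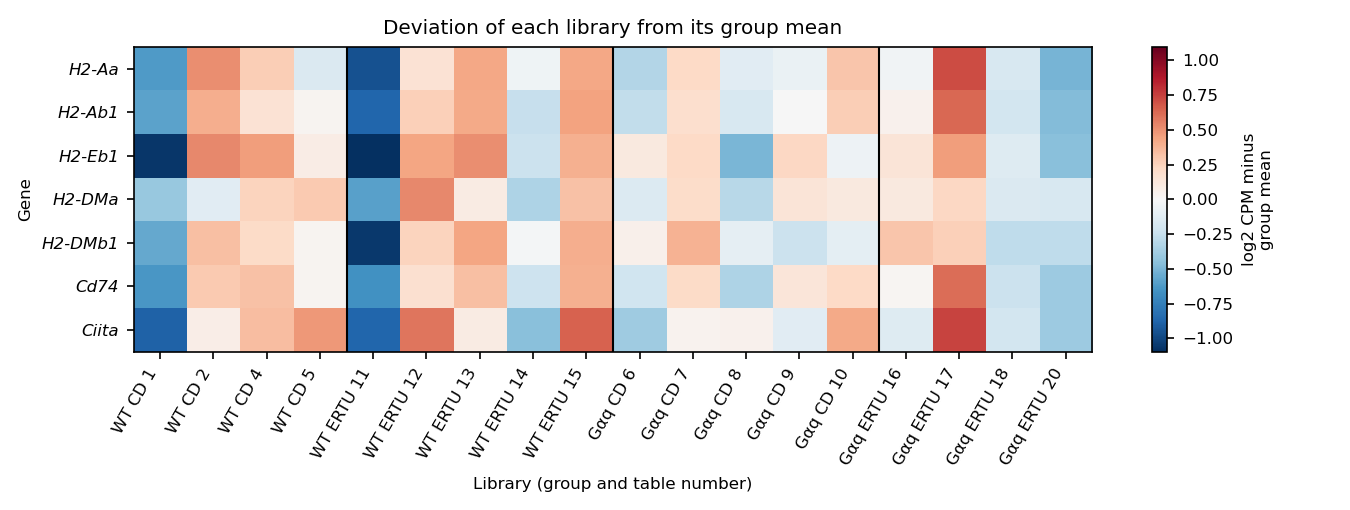
Deviation of each library from its group mean in log2 CPM (colour, blue below and red above) for the 7 members (rows) in the 18 libraries (columns, by group and table number). WT CD 1, WT ERTU 11 and Gαq ERTU 20 are blue throughout, and Gαq ERTU 17 is red for every member.

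Among the genes outside the list, the ones whose deviations were most like the mean deviation of H2-Aa, H2-Ab1, H2-Eb1 and Cd74 were Lbh (r = 0.927 over 18 libraries, of 13088 genes compared), Gm4900 (0.866), Ifi203 (0.855), H2-K2 (0.853) and Cers4 (0.852). These are the highest of all genes compared and have no test. Lbh, at 339 to 833 CPM, was again lowest in WT ERTU library 11 and highest in WT CD library 2. By diet Lbh had a log2 fold change of -0.08 ± 0.15, where the members lay between -0.59 and -0.24. Ifi203 belongs to a family of interferon-inducible genes and H2-K2 to the class I genes.

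Other class II loci were 5 listed genes with a symbol in the table, of which 3 were tested and 1 was called by genotype, where 19.6% of all genes were. H2-Ob, the β chain of H2-DO, which restrains H2-DM, rose in Gαq by 0.79 ± 0.26 (log2, SE; adjusted p = 0.0330 by edgeR). Its group means were 1.09 CPM in WT CD, 0.806 in WT ERTU, 2.07 in Gαq CD and 1.25 in Gαq ERTU. H2-DMb2 was at 0.60 ± 0.24 (adjusted p = 0.0839) and H2-Ea-ps at 0.21 ± 0.29. By diet the 3 were at -0.60, -0.45 and -0.36, in the same order, and none was called. H2-Oa (92 pairs in all) and H2-Eb2 (7 pairs in all) were too low to test. The sum of these loci over the libraries followed the 4 class II genes (r = 0.789, rho = 0.781, r = 0.639 without the 2 farthest libraries).

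Of the CIITA partners and interferon-γ input genes, 13 of 14 were tested, and by genotype 1 was higher and 1 lower, against 19.6% of all genes called in either direction. Ifngr1, the ligand-binding chain of the interferon-γ receptor, rose by 0.29 ± 0.08 (adjusted p = 0.0156). Jak1, a kinase of that receptor, fell by 0.79 on the log2 scale (adjusted p = 9.6e-07). Ifng itself had 10 read pairs in all, with 13 of 18 libraries at 0, and was too low to test. Rfx5, a subunit of the X box factor, was at -0.09 ± 0.11 by genotype and -0.15 ± 0.11 by diet. By diet none of the 13 was called, and their median was -0.07.

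Of 9 genes of class II peptide processing and turnover, 2 were higher by genotype and 0 lower, a share near the 19.6% of all genes. Cathepsin S (Ctss), which trims the invariant chain, rose by 0.42 ± 0.10 (adjusted p = 0.00417), and the tetraspanin Cd63 by 0.52 ± 0.08 (adjusted p = 3.72e-05). Ifi30, the lysosomal thiol reductase, was at 0.21 ± 0.09 (adjusted p = 0.0958). By diet 0 of 9 were called, with a median of -0.03. March1, the ligase that removes class II from the cell surface and that was picked out after its value had been seen, was at -0.55 ± 0.14 by diet, with an unadjusted p of 0.00102 and an adjusted p of 0.614 in edgeR.

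Of 7 tested genes for class II partners on T cells and for co-stimulation, 4 were higher and 1 lower by genotype, where 19.6% of all genes were called. Cd4, the co-receptor that binds class II, rose by 0.74 ± 0.16 (adjusted p = 0.00181) and Lag3, an inhibitory receptor for class II, by 1.38 ± 0.24 (adjusted p = 0.000277). Cd86, a co-stimulatory ligand, rose by 0.45 ± 0.14 (adjusted p = 0.0218). Ctla4, its inhibitory receptor, fell by 1.81 on the log2 scale (adjusted p = 2.54e-05). It averaged 3.65 CPM in WT CD and 4.30 in WT ERTU, and 1.22 in Gαq CD and 1.05 in Gαq ERTU. The highest mean of a T cell marker in WT was 0.519 CPM (Cd3g in WT CD). Which cells gave the Ctla4 reads was not tested. Cd80 also rose, by 0.73 ± 0.22. By diet none of the 7 was called.

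The MHC class I pathway, which presents peptides to CD8+ T cells, had 11 genes, of which 1 was higher and 0 lower by genotype, below the 19.6% of all genes. That gene was Psmb10, a subunit of the immunoproteasome, at 0.20 ± 0.06 (adjusted p = 0.0302). By diet 9 of the 11 were below 0, none was called, and the median was -0.13, nearer to 0 than the -0.47 of the class II members. B2m, the light chain of class I, was at -0.24 ± 0.11 by diet and Nlrc5, the class I transactivator, at -0.20 ± 0.19. The class I sum followed the class II genes over the libraries with r = 0.632 and rho = 0.548. Without the 2 farthest libraries r was 0.418.

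Markers of the cells that can carry class II were measured beside it. By genotype, dendritic cell markers had 3 of 8 higher and 0 lower, where 19.6% of all genes were called. They were Clec9a at 1.5 ± 0.30 (adjusted p = 0.000972), Itgax at 1.06 ± 0.26 (adjusted p = 0.00508) and Flt3, a receptor of their precursors, at 1.06 ± 0.35 (adjusted p = 0.0378). All 3 were low, with 186, 272 and 157 read pairs over all libraries in that order. By genotype 7 of the 8 markers were above 0. Zbtb46, the most abundant of them, averaged 25.1 CPM in WT CD, 24.2 in WT ERTU, 23.3 in Gαq CD and 25.0 in Gαq ERTU. Macrophage markers had 2 of 13 higher, Fcgr1 at 0.71 ± 0.18 (adjusted p = 0.00617) and Cd14 at 0.53 ± 0.13 (adjusted p = 0.00637), and 0 lower, a smaller share than the 19.6% of all genes. Adgre1, the antigen F4/80, was at 0.19 ± 0.10 (adjusted p = 0.167). B cell markers had 2 of 5 higher, Cd79b at 1.79 ± 0.28 (adjusted p = 8.42e-05) and Ighm at 0.40 ± 0.11 (adjusted p = 0.0160), while Cd79a was at 1.02 ± 0.38 (adjusted p = 0.0625).

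In the further lists the called genes are again to be read against 19.6% of all genes. T cell markers had 1 of 3 tested higher by genotype, Lck at 0.87 ± 0.26 (adjusted p = 0.0198). General leukocyte markers had 2 of 5 higher, Ptprc, the antigen CD45, at 0.32 ± 0.10 (adjusted p = 0.0225) and Cd52 at 0.78 ± 0.23 (adjusted p = 0.0186). Fibroblast markers had 4 of 5 higher, the matrix genes Lum at 0.97 ± 0.17 (adjusted p = 0.000265), Col1a1 at 0.87 ± 0.19 and Dcn at 0.62 ± 0.15, and the receptor Pdgfra at 0.38 ± 0.09. Endothelial markers had 1 of 5 lower (Cdh5, at -0.29 ± 0.09), and adipocyte, atrial and red blood cell markers had 0 called. Cardiomyocyte markers had 3 of 7 lower, Ryr2, the calcium release channel, at -0.82 ± 0.15, Myh6, a myosin heavy chain, at -0.46 ± 0.13 and Tnni3, cardiac troponin I, at -0.27 ± 0.09. None of the 7 class II members was called, and the difference between the lists was not tested.

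By diet no marker of any of these lists was called, and the leukocyte lists also had medians below 0. The median log2 fold change was -0.19 for macrophage markers (12 of 13 below 0), -0.07 for dendritic cell markers (5 of 8), -0.36 for B cell markers (5 of 5), -0.61 for T cell markers (3 of 3) and -0.29 for general leukocyte markers (5 of 5). Adgre1 was at -0.36 ± 0.10, Ighm at -0.51 ± 0.11 and Ptprc at -0.29 ± 0.10. Their unadjusted p-values in edgeR were 0.00133, 0.000262 and 0.00635. At an unadjusted p under 0.05 in edgeR were 3 of 13 macrophage, 1 of 8 dendritic cell and 1 of 5 B cell markers. So were 2 of 3 T cell and 2 of 5 general leukocyte markers. Of all genes, 4.31% were lower at that threshold and 50.5% had a log2 fold change below 0. Mean levels of Flt3, Itgax and Cd79a were higher on ERTU than on CD in WT and lower in Gαq. In CPM, general leukocyte markers summed to 51.4 ± 4.51 in WT CD, 47.9 ± 5.12 in WT ERTU, 70.7 ± 11.2 in Gαq CD and 54.4 ± 3.67 in Gαq ERTU. The 4 class II genes summed to 212 ± 60.6, 163 ± 49.3, 245 ± 40.4 and 168 ± 59.4 CPM in the same order (SD, n = 4, 5, 5 and 4). The part of leukocyte numbers in the class II values was not tested.

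From library to library, class II levels were also set against the summed markers of leukocytes. With the summed dendritic cell markers, the mean class II deviation had an r of 0.145 over 18 libraries, with B cell markers 0.0193, with T cell markers -0.00140 and with general leukocyte markers 0.285. Spearman's rho for these 4 lists was 0.0382 to 0.121, and r without the 2 farthest libraries was -0.281 to 0.162. These sums follow their most abundant genes, the dendritic one Zbtb46 (23.3 to 25.1 CPM in the group means) and the B cell one Ighm (8.38 to 15.9 CPM), and say little of the rarer markers. With macrophage markers r was -0.513 and rho -0.587, and r was -0.765 without the 2 farthest libraries. Single genes of these lists went both ways, with r of 0.662 for Ccr2, 0.525 for Fcgr1, 0.412 for Timd4 and 0.468 for Coro1a, and of -0.474 for Lyz2, -0.561 for Csf1r and -0.681 for Lyve1. Markers of red blood cells gave an r of -0.682 (rho -0.641, -0.510 without the 2 farthest) and those of adipocytes -0.509 (rho -0.544, -0.548 without). WT CD library 1 and WT ERTU library 11, the lowest of their groups for class II, had the highest red blood cell sums of their groups. These lay 0.65 and 0.58 above the group mean in log2 CPM. Of the libraries lowest in the other groups by the class II mean, Gαq CD library 8 was at 0.29 and Gαq ERTU library 20 at -0.18. The part of blood or fat in the class II values was not tested, and these relations are given as descriptions without a p.

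The remaining lists gave r between the extremes above. They were -0.275 for fibroblast, 0.294 for endothelial, 0.202 for cardiomyocyte and -0.212 for atrial markers. Without the 2 farthest libraries they were -0.549, -0.0881, 0.478 and -0.377 in the same order. For the CIITA partners and interferon-γ input genes r was 0.277 (0.554 without the 2 farthest libraries). For processing genes it was -0.306 (-0.350 without) and for partners and co-stimulation 0.148 (-0.159 without). Within the list of CIITA partners and interferon-γ input, which sums genes of very different levels, single genes went both ways. Nfyc alone had an r of 0.675 with the class II mean and Irf1 0.661, while Rfxank had -0.701.

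**Figure D5:**
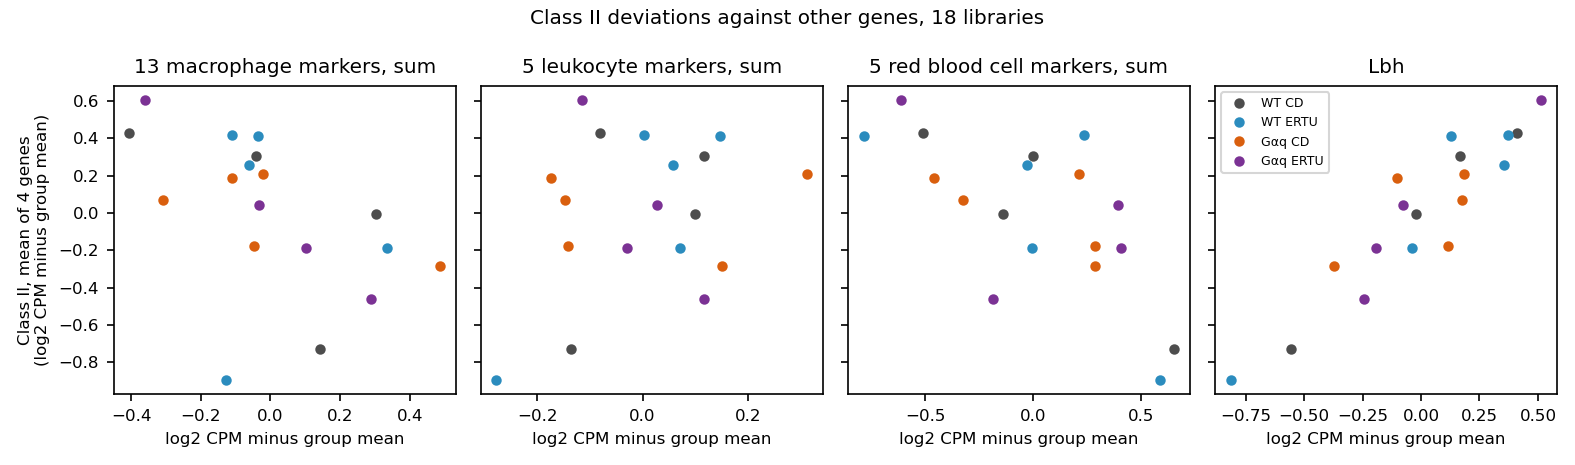
Mean deviation of H2-Aa, H2-Ab1, H2-Eb1 and Cd74 from the group mean (vertical axis, log2 CPM) against the deviation of the summed macrophage, general leukocyte and red blood cell markers and of Lbh (horizontal axes, log2 CPM) in 18 libraries coloured by group. The points fall with macrophage (r = -0.513) and red blood cell markers (r = -0.682) and rise with Lbh (r = 0.927).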

How the data were processed

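Left ventricles of 18 FVB/N mice were sequenced from poly(A)-selected libraries. The authors aligned read pairs to mm10 with STAR 2.6.0c. They counted uniquely aligned proper pairs on the same strand over nuclear genes with featureCounts of Subread 1.6.2, per the study's methods and processing notes. The first deposited table holds these counts. A second deposited table gives them on a log2-like scale after variance stabilization in DESeq2 (1.23.10 in the processing notes) by the authors. Group comes from the titles, and 0 columns were left unmapped.

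Counts were tested with edgeR 4.0.16 in R 4.3.3 (filterByExpr on the groups, TMM, quasi-likelihood F tests, Benjamini-Hochberg over all 16270 genes tested, threshold 0.05). Genotype and diet came from a model with both factors, and the other comparisons from a model with 1 mean per group. Genes left out held 0.0906% of counts. CPM uses TMM factors, log2 CPM a prior count of 2, and RPKM the summed exon length of GENCODE M21 (GRCm38), which gave 99.4% of gene IDs a symbol. Correlations used deviations from group means and 100000 permutations (scipy 1.17.1). Steps were tested on simulated data.

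The members, the lists and the rule for named genes were chosen with earlier results of these data known. Named are the 7 members and, from each further list, up to 4 genes with the smallest adjusted p by genotype among those past the threshold. Ptprc, Adgre1, Itgax, Flt3, Cd79a, Ighm, Ctss, Ifi30, Rfx5, Ifng, Nlrc5, B2m and H2-Ea were named in any case (no row has the symbol H2-Ea), as were the 5 genes most like the members. A further gene of the rule is not reported here. Cd80 was added, and Irf1, Nfyc, Rfxank, Ccr2, Fcgr1, Timd4, Coro1a, Lyz2, Csf1r and Lyve1 were given as likeness values, after being seen. Promoter windows were in the table for 4 members, H2-Aa, H2-Eb1, H2-DMb1 and H2-DMa, and sequences for the others were not used here. Alternatives were scaling by the DESeq2 size factors, testing without a low-count filter or with one at a mean CPM of 1, the DESeq2 1.42.0 Wald test, voom of limma 3.58.1 with weights per library, limma on the deposited transformed values, fits of the 2 groups compared, and leaving out each library. The spread between libraries was measured directly, so counting intervals were not used.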

Additional observations from a re-analysis of the deposited data

How the results depend on the processing

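No paired analysis was possible because no library number of the count table occurs in more than 1 group. The replicate block that had been planned was therefore not fitted. All 7 members were lower on ERTU by diet and in Gαq under each alternative and each fit without 1 library. In WT the number was 4 under limma voom and 6 or 7 without 1 library. No member was called in any fit without 1 library. Of 882 member results without 1 library, 858 kept their direction and 24 turned sign, and of 322 under other settings 309 did, 12 turned and 1 passed the threshold. The low counts of H2-Eb1, H2-DMb1, Ciita and H2-DMa limit what can be detected.

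Under limma voom with sample quality weights, 1 member was called for Gαq against WT on ERTU (H2-Eb1, -1.13). Under voom these values turned sign, and the cause was not tested. For Gαq against WT on ERTU they were H2-Aa -0.18, H2-Ab1 -0.27, Cd74 -0.22 and H2-DMa -0.0145. For ERTU in WT they were H2-Eb1 0.22, H2-DMa 0.00042 and Ciita 0.0612. H2-Ab1 by genotype was -0.0054, H2-Eb1 for Gαq against WT on CD 0.28, and the interactions of H2-DMb1 and Ciita -0.21 and -0.46. With the deposited transformed values H2-Eb1 for Gαq against WT on CD was 0.0069.

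Leaving out 1 library turned the sign of results with these ranges. For Gαq against WT on ERTU, Cd74 ran from -0.22 to 0.16, H2-Aa from -0.23 to 0.23, H2-Ab1 from -0.25 to 0.16 and Ciita from -0.0192 to 0.48. On CD, Ciita ran from -0.0090 to 0.38 and H2-Eb1 from -0.32 to 0.11. H2-Ab1 by genotype ran from -0.0044 to 0.18, and H2-Eb1 for ERTU in WT from -0.43 to 0.0234. The interactions ran from -0.42 to 0.0589 for H2-Aa, from -0.0402 to 0.32 for H2-DMb1 and from -0.24 to 0.32 for Ciita.

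Over all genes, diet gave 2 calls under DESeq2. ERTU in Gαq gave 1 call, against 0 in a fit of its 2 groups, 0 in one without the low-count filter, 0 in each fit without 1 library and 4 under DESeq2. Gαq on ERTU gave 1330 calls and 2755 under voom, and Gαq on CD 1318 calls, 788 without WT CD library 1 and 851 without WT CD library 2.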
